A study of Chlamydomonas reinhardtii with 12 samples.

Results

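LHCSR1 is a stress-related light-harvesting protein of the green alga Chlamydomonas reinhardtii, and its transcript was followed here in 2 strains during a shift from low to high light. Its gene has the locus tag CHLRE_08g365900v5 and was represented on the array by 4 spots (spot numbers 1700, 4580, 7460 and 10340), which are copies of 1 of the 2880 elements printed. The gene was taken from the platform's annotation by this locus tag, and it was chosen by its measured strain ratios at the 3 time points, above all that at 6 h. Its ratios are therefore given as a description, and no test of them is reported.

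The LHCSR proteins belong to the light-harvesting complex family and bind chlorophyll and xanthophylls. Unlike most antenna proteins, they are known for turning absorbed excess energy into heat, a process measured as non-photochemical quenching. In Chlamydomonas, LHCSR transcripts are known to accumulate under excess light. LHCSR3, a closely related protein of the same family, is the other main quenching protein of this alga. Its transcripts were not analysed here, and their part in the signal of the LHCSR1 spots was not tested.

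The strains were CC-125, the wild type, and npq1 lor1, a double mutant. The npq1 mutation is known to block the conversion of violaxanthin to zeaxanthin, and lor1 to block the formation of lutein. Both pigments are photoprotective xanthophylls. The double mutant carries the mutations in all its samples, low light included, and pigment contents are not part of these data. Both strains were sampled in low light, after 1 h and after 6 h of high light, and total RNA of the strains was hybridised as pairs on 2-colour cDNA arrays. Each time point had 2 biological samples, each measured on 2 slides with exchanged dyes, for 12 slides in all. The light intensities and the age of the cultures were not stated in the labels, and each genotype is represented by a single strain, so that other genetic differences between the strains cannot be told apart from the mutations.

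Each value is a log2 ratio of the strains, not a transcript level, so the data show how far the strains differed at each time point and not whether LHCSR1 rose or fell in either strain. Its numerator is likely wild type. The sample titles name that strain before the mutant, and the stated dye ratios give the same direction provided Cy3 labelled channel 1 throughout. Which dye that channel carried is not stated in the labels. Under this reading a negative value means more LHCSR1 transcript in npq1 lor1, and a value of -1 would be a 2-fold difference.

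Of the 48 LHCSR1 spots on the 12 slides, 44 had a value, and 34 of these were negative and 10 positive. The other 4 were listed at exactly 0 and were treated as not measured. On 2 slides all 40 neighbouring spots of the missing spot were listed at 0 as well. These were the slides of biological sample 2 with wild type in channel 1 at 1 h and at 6 h. Neighbouring means nearest in spot number throughout, since coordinates on the slide were not used. Both other missing spots were on the slide of low light biological sample 2 with npq1 lor1 in channel 1, which left 2 copies there, and between 8 and 13 of their 40 neighbours were listed at 0.

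In low light the LHCSR1 ratio was small and its sign followed the orientation of the slide. Where wild type was in channel 1, biological sample 1 had a log2 ratio of 0.11 (mean of 4 copies, from 0.06 to 0.25) and biological sample 2 also one of 0.11 (4 copies). All 8 of these spots were positive. With npq1 lor1 in channel 1, biological sample 1 had -0.43 (4 copies, from -0.56 to -0.26) and biological sample 2 had -0.80 (2 copies, -1.05 and -0.55). All 6 of these spots were negative, and the exchanged slides did not overlap. Averaged over exchanged slides, the biological samples had -0.16 and -0.34, which gave a mean log2 ratio of -0.25 ± 0.13 (SD, n = 2). The mean thus averages opposite signs, and its SD leaves out the spread between exchanged slides.

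After 1 h of high light, the biological samples differed more from each other than the dye orientations did. Biological sample 1 had log2 ratios of -0.13 with wild type in channel 1 and -0.07 with npq1 lor1 there, close to equality on both slides. Biological sample 2 had -0.48 and -0.65 in the same order, and all of its 7 spots lay between -0.77 and -0.39. The sample means were -0.10 and -0.56, and the mean over both was -0.33 ± 0.33 (SD, n = 2). The biological samples lay 0.46 apart, and 97.1% of the elements measured in both had a gap of this size or less. The low light values of -0.16 and -0.34 fell inside the range of the 1 h values, so these time points overlapped.

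After 6 h of high light, every LHCSR1 spot with a value was negative. The slide means of biological sample 1 were -0.85 with wild type in channel 1 and -0.97 with npq1 lor1 there, and those of biological sample 2 were -1.01 and -1.30. The 15 spots ran from -1.83 to -0.51 with a median of -1.05. Averaged over exchanged slides, the samples had -0.91 and -1.16, and the mean log2 ratio was -1.03 ± 0.18 (SD, n = 2), a 2.04-fold difference, toward npq1 lor1 under the likely reading. Both samples lay below all 4 samples of the earlier time points.

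**Figure D1:**
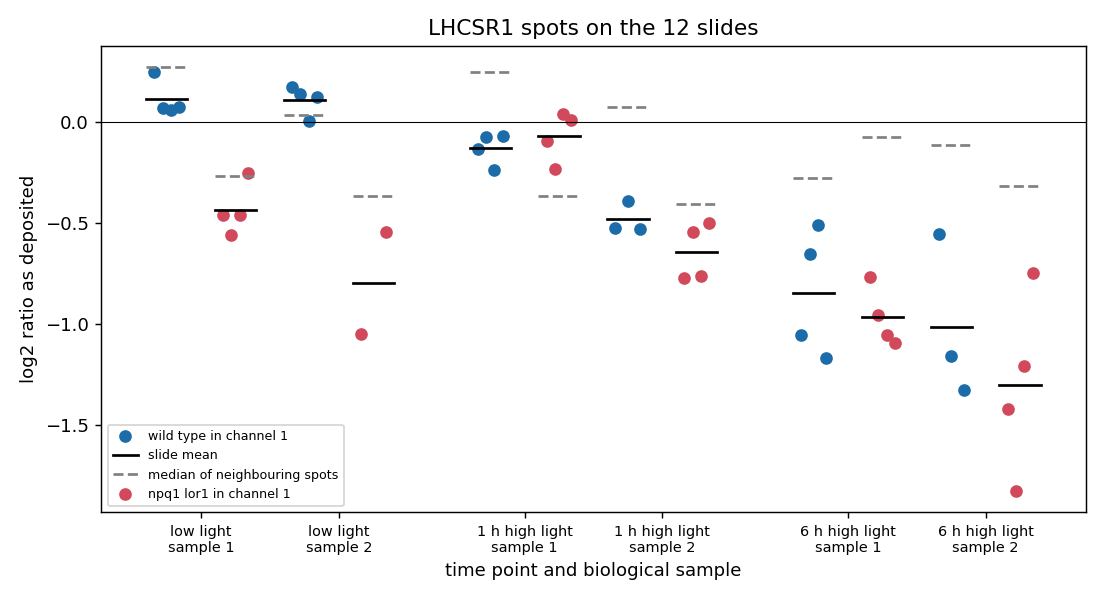
LHCSR1 log2 ratio as deposited (vertical axis) for each spot with a value (points), by time point and biological sample (horizontal axis), with blue for slides with wild type in channel 1 and red for slides with npq1 lor1 there. Black bars are slide means and dashed grey bars the median of the neighbouring spots. The low light slides separate by orientation, and all 15 spots at 6 h lie below 0.

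The copies of the LHCSR1 spot varied within slides. At 6 h their SD was 0.31 and 0.14 on the slides of 6 h biological sample 1 (wild type, then npq1 lor1 in channel 1), and 0.41 and 0.45 on those of biological sample 2. In low light the SD was 0.09 and 0.13 for biological sample 1, and 0.07 and 0.36 for biological sample 2, the last from 2 copies. The median SD between copies over all elements was 0.35 and 0.046 on the slides of 6 h biological sample 1 and 0.18 and 0.12 on those of sample 2. LHCSR1 thus had a larger SD than the median element on 3 of the 4 slides at 6 h.

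The medians of neighbouring spots were of a size that bears on these values. The median of the 40 spots nearest in number to an LHCSR1 copy ran from -0.72 to 0.48 over all slides. It ran from -0.72 to 0.08 at 6 h. These spots belong to the same elements at each copy. For the part of the medians shared by all copies, strain ratios of those elements and trends across the slide cannot be told apart. Differences between copies on a slide are not differences between elements, and their source was not tested. On the 6 h slide of biological sample 1 with wild type in channel 1, the medians were -0.72, -0.12, 0.08 and -0.43. The LHCSR1 copies had -1.05, -0.65, -0.51 and -1.17 in the same order. On that of biological sample 2 with npq1 lor1 there, medians of -0.63, -0.11, -0.51 and -0.13 stood against -1.42, -1.83, -1.21 and -0.75. At 6 h each of the 15 spots lay below the median of its own neighbours, by 0.33 at the least and with a median difference of -0.73. At 1 h 11 of 15 spots lay below their neighbours, with a median difference of -0.33, and in low light 10 of 14, with a median difference of -0.17. With a running median of neighbouring spots subtracted on every slide, LHCSR1 had a ratio of -0.22 both in low light and after 1 h, and of -0.82 after 6 h.

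For LHCSR1 the exchanged slides lay farthest apart in low light. The distance of each slide from the mean of its exchanged pair (the slide with wild type in channel 1 minus the pair's mean) was 0.27 and 0.45 in the low light samples, -0.03 and 0.08 at 1 h, and 0.06 and 0.14 at 6 h. If the slides with npq1 lor1 in channel 1 had not been turned as the labels describe, these distances would be the strain ratio and the means given above a dye effect. LHCSR1 would then have a ratio of 0.36 in low light, 0.026 after 1 h and 0.10 after 6 h, so the reading as a strain difference at 6 h rests on the labels. Over all elements, slides with exchanged channels correlated with r between -0.57 and 0.13 (36 pairs), and slides with the same strain in channel 1 with r between 0.31 and 0.83 (30 pairs). The elements share slides, and trends across the slide were not separated out, so these are descriptions.

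The 6 h and low light ratios of LHCSR1 are also given by orientation, with the deposited sign. With wild type in channel 1, the mean went from 0.11 to -0.93, a difference (6 h minus low light) of -1.04 (SE 0.08), and the 4 possible pairs of samples ran from -1.13 to -0.95. With npq1 lor1 in channel 1, it went from -0.62 to -1.13, a difference of -0.52 (SE 0.25), with pairs from -0.87 to -0.17. In neither orientation did the 6 h samples overlap with those of low light.

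From low light to 1 h the orientations went opposite ways. The difference was -0.42 (SE 0.18) with wild type in channel 1 and 0.26 (SE 0.34) with npq1 lor1 there, and -0.08 (SE 0.25) over both. Over both orientations, the difference from low light to 6 h was -0.78 (SE 0.16, pairs of samples from -1.00 to -0.56), and that from 1 h to 6 h was -0.70 (SE 0.26, pairs from -1.06 to -0.34). Ordered by the mean ratio, 6 h was lowest, and low light and 1 h did not differ beyond their spread. With 2 samples against 2, an exact two-sided permutation test cannot give a p below 0.333.

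**Figure D2:**
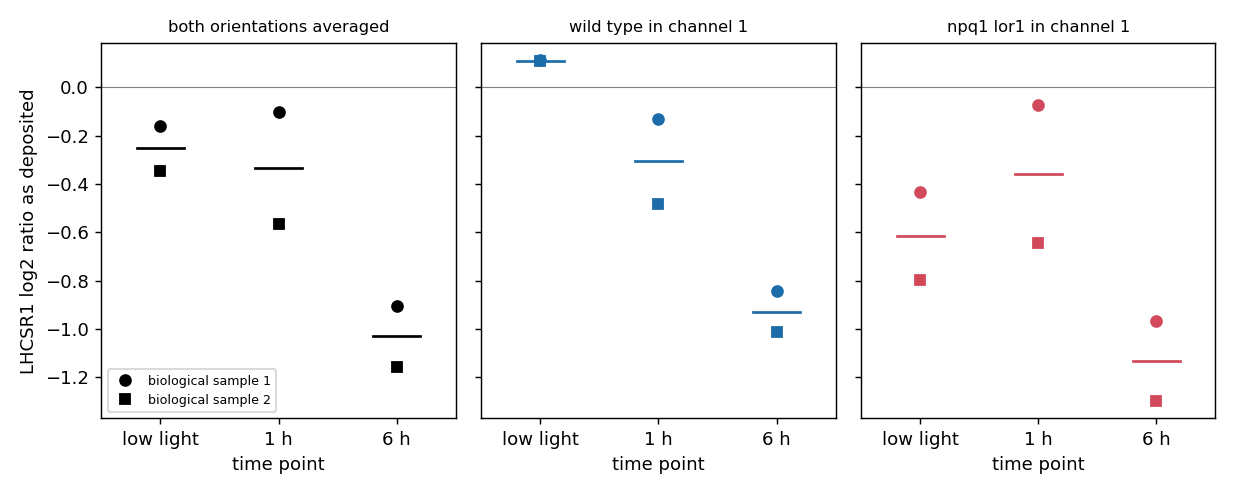
LHCSR1 log2 ratio (vertical axis) by time point (horizontal axis), averaged over exchanged slides (left) and on slides of each orientation alone (middle and right). Circles and squares are biological samples 1 and 2 and bars their mean, and the 6 h samples are lowest in each panel.

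Set against the rest of the array, LHCSR1 lay among the most negative elements at 6 h. Its mean ratio ranked number 2 from the lowest of 2139 elements, where the median ratio was 0.03. This rank rests on the slides having been turned as the labels describe: with the sign of those with npq1 lor1 in channel 1 turned, the ratio of 0.10 ranked 1207 of 2139, where the median was 0.073. With the deposited sign, on the 4 slides at 6 h it ranked 21 and 8 from the lowest in biological sample 1 (wild type, then npq1 lor1 in channel 1) and 9 and 2 in biological sample 2, among 2683, 2699, 2202 and 2504 elements. In low light it ranked 79 of 2396 and at 1 h 45 of 2272, which put it in the lowest 3.30% and 1.98%. These are ranks of means over exchanged slides. On single slides, in the same order as for 6 h, it lay in the lowest 40.6%, 10.4%, 55.2% and 2.94% in low light. At 1 h the values were 9.32%, 64.8%, 2.73% and 3.88%. With the sign turned as above, it ranked 2158 of 2396 in low light and 712 of 2272 at 1 h. The difference from low light to 6 h ranked number 6 from the lowest of 2032 elements, and that from 1 h to 6 h number 10 of 1925. These ranks describe the values that led to the choice of the gene and are not independent evidence.

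**Figure D3:**
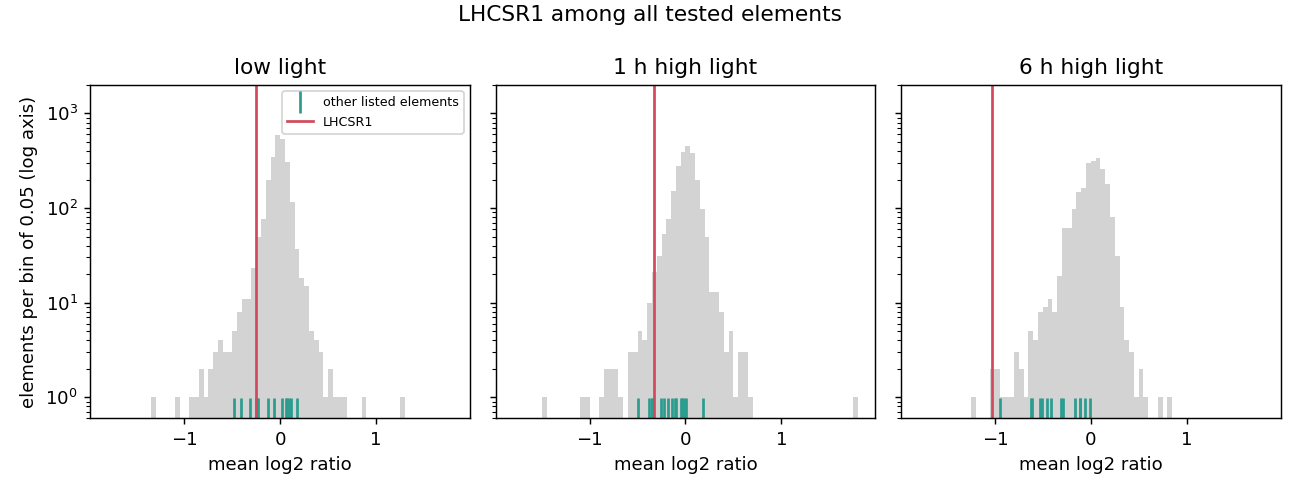
Number of elements per bin of 0.05 (vertical log axis) by mean log2 ratio (horizontal axis) at each time point, with LHCSR1 as a red line and the other listed elements as green ticks. LHCSR1 stands at -0.25, -0.33 and -1.03.

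Other genes of photosynthesis were taken from 3 lists of 55 locus tags in all, drawn up from general knowledge of Chlamydomonas loci. The lists covered light harvesting, the photosystems with electron transport and ATP synthase, and pigment synthesis. The platform's annotation and the gene table give no function for these tags, so the single loci are given by tag alone. On the array were 14 of the loci, LHCSR1 among them, as 16 elements, and the lists were made with earlier results of these data known. Calls are those of limma's test of the mean ratio against 0 with Benjamini-Hochberg adjustment over all elements, at a threshold of 0.05.

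At 6 h, each of the 14 other listed elements that could be tested had a negative ratio, as LHCSR1 and 42.5% of all elements had, and 7 of the 14 passed limma's test. Over all tested elements, 2.01% passed at 6 h, 1.68% with a negative ratio and 0.327% with a positive one. The median log2 ratio was -0.36 over the listed elements, -0.01 over all 79 tested elements with a locus tag and 0.03 over all elements. Of the other light-harvesting loci both tested ones passed, CHLRE_16g673650v5 with a ratio of -0.94 ± 0.01 (SD, n = 2, limma adjusted p = 0.00101) and CHLRE_17g720250v5 with -0.41 ± 0.09 (SD, n = 2, limma adjusted p = 0.0219). Both SDs leave out the spread between exchanged slides. The 6 h slides ran from -1.12 to -0.75 for CHLRE_16g673650v5 and from -0.86 to -0.10 for CHLRE_17g720250v5. Neither mean ratio was as far from equality as that of LHCSR1, but the samples of CHLRE_16g673650v5 and LHCSR1 overlapped. CHLRE_16g673650v5 had -0.95 against -0.91 for LHCSR1 in biological sample 1, and -0.93 against -1.16 in biological sample 2. CHLRE_04g232104v5 was not tested at 6 h, since 3 of the 4 slides had a value. Its slides had -0.76 and -0.89 in biological sample 1 and 0.21 on the slide of biological sample 2 with npq1 lor1 in channel 1.

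In the photosystem, electron transport and ATP synthase list 4 of 10 tested elements passed at 6 h. They were CHLRE_08g372450v5 at -0.63, CHLRE_03g182551v5 at -0.61, CHLRE_10g420350v5 at -0.50 and CHLRE_05g238332v5 at -0.46. The 3 elements of CHLRE_06g259900v5 were among those that did not pass, with ratios of -0.17, -0.11 and -0.01. In the pigment synthesis list CHLRE_03g158000v5 passed at -0.53, and CHLRE_12g509650v5, at -0.06, did not.

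The count at 6 h depended on single samples. Without biological sample 1 of 6 h, 4 of 14 listed elements passed (1.84% of all elements), and without biological sample 2, 2 of 15 (1.34% of all). It was 7 of 14 on slides with wild type in channel 1, where 20.3% of all elements passed, and 3 of 15 on those with npq1 lor1 there, where 0.842% did. With the sign of the latter turned, 1 of 14 listed elements passed below equality and 1 above it, a smaller share than the 22.4% of all elements that passed. With zeros kept as values limma called 0 of 15, 9 of which had an unadjusted p under 0.05.

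At the earlier time points the medians of the listed elements lay closer to equality, although single elements such as CHLRE_17g720250v5 in low light did not. In low light 8 of 14 were negative (57.1%, median -0.09), close to the 56.0% of all elements. Of these CHLRE_17g720250v5 passed, at -0.48. Over all elements 0.292% passed with a negative ratio there. This call was lost without either low light sample, without either 1 h sample, and with zeros kept as values. Other settings gave more listed calls in low light. With the spread taken from that time point's samples, 6 of 14 passed (4.76% of all elements). With all 12 slides fitted and biological sample as random block, 4 of 14 passed (1.92% of all elements). At 1 h 13 of 15 listed elements were negative (86.7%, against 45.9% of all elements), with a median of -0.15. Of these 15, 0 passed limma's test, where 0.704% of all elements passed in either direction. At an unadjusted p under 0.05 there were 7 listed elements at 1 h. Without any 1 of the low light or 6 h samples, 1 listed element passed at 1 h. It was 4 of 15 with the spread taken from that time point's samples (3.57% of all elements) and 4 of 15 on slides with npq1 lor1 in channel 1 (17.3% of all elements).

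Likeness to LHCSR1 was measured by Pearson's correlation over the 6 biological sample means, among 1894 other elements with all 6 values, 74 of them with a locus tag. All elements share the slides and RNA extracts, so the values are a description. The median r was -0.12, and 29 elements had an r of at least 0.9.

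CHLRE_08g372450v5 was most like LHCSR1 among the elements with a locus tag, with r = 0.98. Its ratios were -0.23 and -0.41 in the low light samples, -0.24 and -0.46 at 1 h and -0.56 and -0.69 at 6 h, and all 12 slides were negative. Its ratio was below that of LHCSR1 in both low light samples and closer to equality in both 6 h samples, so its range was smaller. CHLRE_16g673650v5, with r = 0.90, was nearest in the values themselves, with a root mean square difference from LHCSR1 of 0.18 on the log2 scale, the smallest of all 1894 elements. Its ratios were -0.32 and -0.50 in low light, -0.20 and -0.30 at 1 h and -0.95 and -0.93 at 6 h. At 1 h its slides had opposite signs by orientation, 0.16 and 0.15 against -0.56 and -0.75, as those of LHCSR1 had in low light.

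The other tagged elements near LHCSR1 in pattern moved over a narrower range. CHLRE_03g204650v5 (r = 0.95) went from a mean of -0.09 in low light to -0.31 at 6 h, and CHLRE_06g267200v5 (r = 0.92) from -0.02 to -0.12. The former is element 1702 and LHCSR1 element 1700, so its copies were among the 40 neighbouring spots of the LHCSR1 copies. Whether a shared position adds to their likeness was not tested. CHLRE_05g238332v5 (r = 0.90) went from -0.26 to -0.46. Among elements without a locus tag, element 2072 (r = 0.99) had mean ratios of 0.01, -0.01 and -0.35 at the 3 time points, and element 2162 (r = 0.99) had 0.10, 0.098 and 0.0014. The latter shows that r takes no account of size, since its root mean square difference from LHCSR1 was 0.69. The other light-harvesting locus that passed at 6 h, CHLRE_17g720250v5, had an r of 0.29, with its ratio farther from equality in low light (-0.48) than at 1 h (-0.09).

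**Figure D4:**
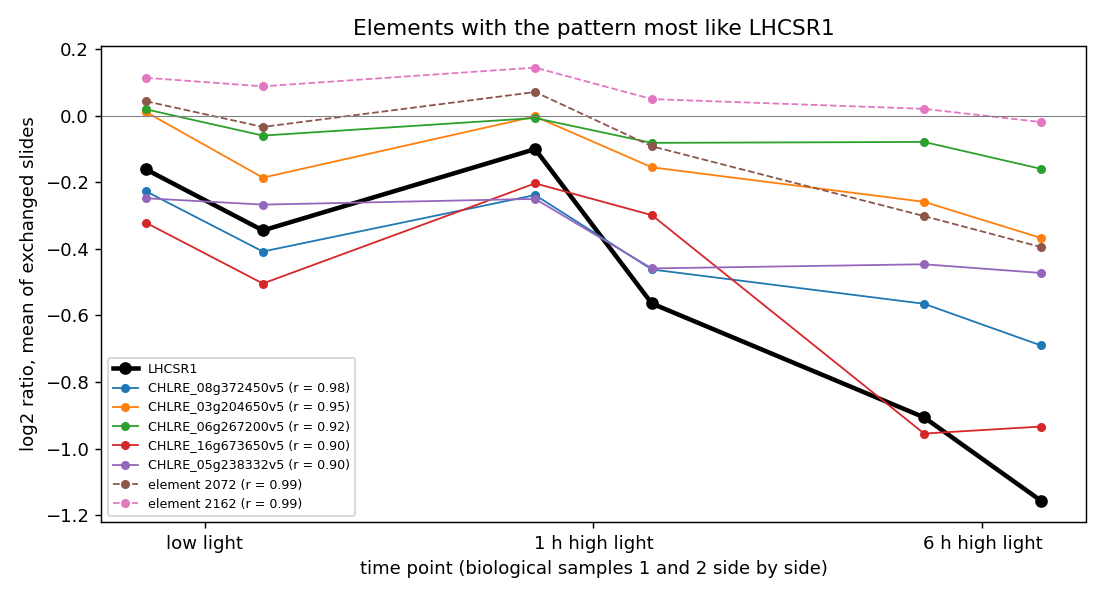
Log2 ratio, mean of exchanged slides (vertical axis), in the 6 biological samples (horizontal axis, samples 1 and 2 side by side) for LHCSR1 in black and for the 5 elements with a locus tag (solid) and the 2 without (dashed) that had the highest r within their kind. LHCSR1 reaches -0.91 and -1.16 at 6 h, and CHLRE_16g673650v5 is the only other one drawn that falls below -0.9.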

How the data were processed

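The deposited values are log2 ratios, which the authors had normalized in SNOMAD, per the labels (Cy3 over Cy5 with wild type in channel 1, Cy5 over Cy3 with npq1 lor1 there). SNOMAD's settings, the background correction, the centring and any spot filter are not given in the sources used, and spot intensities were not used. Precision is limited by the 2 biological samples per time point. The 11520 spots hold 4 copies of each of 2880 elements, as inferred from the spacing of shared clones in the platform annotation, which gives 1 locus for 105 elements. Values of exactly 0 were treated as missing. At least 2 copies per slide were averaged, then the exchanged slides of each biological sample, as 1 replicate. The labels call the samples biological replicates. Slide medians without zeros lay between 0.04 and 0.17 where channel 1 held wild type, and from -0.17 to -0.02 where it held npq1 lor1.

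Means were tested against 0 with limma 3.58.1 in R 4.3.3 (lmFit and eBayes, two-sided) over all elements, with 1 spread per element for all time points, and tested on simulated data. The gene, the lists and the rule for named genes (listed loci, and the 5 tagged and 2 untagged elements most like LHCSR1) were chosen with earlier results of these data known. Alternatives varied the treatment of zeros, copies, centring, position, orientation, sign, spread, samples and blocks. All 100 loci matched the gene table of assembly Chlamydomonas_reinhardtii_v5.5, and coordinates are left out, since the array names no build.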

Additional observations from a re-analysis of the deposited data

Results flagged for a closer look

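LHCSR1 itself met none of the conditions for a closer look, and 3 of the listed loci did. Among 58 sets of 4 slides examined for the 20 elements named or listed, 1 held a slide far from the others, and chance gives about 1 in 20. It was CHLRE_11g467569v5 in low light, where biological sample 2 with wild type in channel 1 had 0.18 and the other 3 slides lay between 0.05 and 0.06 (the gap was 0.902 of the range).

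Listed elements whose samples were all on 1 side of equality in low light and all on the other later are given by the difference of the mean log2 ratios, later minus earlier, which was not tested. The difference for CHLRE_11g467569v5 was -0.31 at 1 h and -0.40 at 6 h. For CHLRE_14g626700v5 it was -0.13 at 1 h and -0.30 at 6 h. For element 2007 of CHLRE_06g259900v5 it was -0.25 at 1 h and -0.18 at 6 h, and the other 2 elements of that locus did not show this. In low light the ratios of these elements were near equality, at 0.09, 0.02 and 0.07. The sides are those of the means of exchanged slides, and single slides were mixed. CHLRE_11g467569v5 was negative on 0 of 4 slides in low light, 4 of 4 at 1 h and 3 of 4 at 6 h. For CHLRE_14g626700v5 it was 1 of 4, 2 of 4 and 4 of 4. For element 2007 it was 2 of 4, 3 of 4 and 3 of 4.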

How the results depend on the processing

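The 6 h ratio of LHCSR1 (-1.03) was -0.82 after subtraction of a running median of neighbours and 0.10 with the sign of the slides with npq1 lor1 in channel 1 turned. The low light ratio (-0.25) was 0.11 on slides with wild type in channel 1, -0.62 on those with npq1 lor1 there and 0.36 with the sign turned, and the 1 h ratio (-0.33) was 0.026 with the sign turned. Leaving out 1 biological sample in turn gave -0.34 to -0.16 (low light), -0.56 to -0.10 (1 h) and -1.16 to -0.91 (6 h). With at least 3 copies per slide, low light gave no LHCSR1 value.

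The number of elements called (8, 16 and 43 at the 3 time points in order) moved more, and the cause was not tested. With all 12 slides fitted and biological sample as random block it was 46, 72 and 106. On slides with wild type in channel 1 it was 46, 244 and 445, on those with npq1 lor1 there 468, 453 and 21, and with the sign turned 842, 796 and 479. With zeros kept as values limma called 0 at each time, where 263, 365 and 542 elements had an unadjusted p under 0.05. With at least 3 copies it was 27 in low light and 28 at 1 h, and with the samples of the time point alone 114 and 81. Without 1 biological sample it ran from 1 to 20, from 1 to 37 and from 30 to 57. The replicate block gave 27 calls in low light and left LHCSR1's ratios as they were. Deviations of same-numbered samples correlated across elements with r = 0.24 (low light and 1 h), -0.03 (low light and 6 h) and -0.16 (1 h and 6 h). With 2 samples per time point, these values cannot decide whether same-numbered samples belong together.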
